A study of Mus musculus with 36 samples.

Results

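Interferon-stimulated genes are the genes that cells switch on after an interferon binds its receptor, and 46 of them, out of 54115 genes in the tables, were followed here through whole mouse melanomas and 3 cell populations. The 46 were chosen by name as well-known interferon-induced genes, with earlier results of these data known. From background knowledge they were divided into 28 genes induced mainly by type I interferon, 9 induced strongly by interferon-gamma and 9 that both kinds induce well (called shared below). The comparison throughout was between double-knockout (dKO) samples, which lack both macroH2A genes (H2afy and H2afy2), and wild-type (WT) samples. MacroH2A is a histone variant with a large extra domain, generally found in silent chromatin.

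Type I interferons signal through a receptor pair, and the complex that forms around IRF9 binds a DNA element called the ISRE. Interferon-gamma, made mostly by T cells and NK cells, acts through another element, the GAS, and induces IRF1, which itself binds ISRE-like sites. The products block virus replication, destroy foreign RNA, modify proteins with ISG15 or attack vacuoles that hold pathogens, and in tumours the same genes are read as a trace of interferon in the tissue.

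The tumour-bearing mice carried the BrafCA allele and the Tyr-CreERT2 transgene of the melanoma strain, so that recombination after topical 4-hydroxytamoxifen was driven by the tyrosinase promoter in melanocytes, whereas the loss of macroH2A in dKO mice was constitutive and present in every cell. Tumours were taken 50 days after induction. Bulk RNA came from 6 dKO tumours (1 from a female and 5 from males) and 6 WT tumours (4 from females and 2 from males), run in 3 batches of 2 and 2. CD8+ T cells and cancer-associated fibroblasts (CAFs, sorted on Pdgfra protein) came from 4 dKO and 4 WT mice each, 2 of each sex, aged 9 weeks at induction for the T cells and 10 weeks for the CAFs. Immortalized dermal fibroblasts (iDFs) of male mice, grown outside the tumour, were starved of serum and then given serum for 0 or 30 min, with 2 dKO and 2 WT replicates at each time. Nothing states that the iDF replicates are separate cultures, so their p-values measure only the spread between these samples, which may be technical.

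Estimated counts in genes ran between 17526618 and 85432397 per library (median 26158133). The 6 T cell markers summed to 5391 to 6031 TPM (a level that allows for transcript length and library total) in dKO CD8+ T cells and 5428 to 9493 TPM in WT CD8+ T cells. The 6 fibroblast markers summed to 23211 to 28208 TPM in dKO CAFs and 18889 to 24544 TPM in WT CAFs. Of the interferon genes themselves, only Ifng, the gene of interferon-gamma, was read at a high level, and only in the T cells. Its CPM (counts scaled by TMM to a common library total, without length) was 221, 257, 252 and 421 in dKO CD8+ T cells, against 323, 214, 461 and 364 in WT CD8+ T cells. The ranges overlapped. Ifnb1 and the 4 Ifna genes examined were listed at 0 in every library of bulk tumours, CD8+ T cells and CAFs.

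Promoter windows from RefSeq (GRCm38.p6, 250 bases before to 50 bases after the start) were found for 36 of the 46 members. A pair of short letter patterns was searched on both strands, GAAANNGAA for the ISRE core and TTCNNNGAA for the GAS core, which reads the same on both strands and can overlap an ISRE match. The 4 stretches below are shown as examples of these elements, in 2 mainly type I genes (Ifit1 and Isg15) and 2 interferon-gamma genes (Igtp and Irf1). Capitals mark bases covered by a match, and positions count the start base as 0.
Ifit1: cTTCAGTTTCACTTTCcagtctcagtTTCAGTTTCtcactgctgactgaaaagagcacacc
Isg15: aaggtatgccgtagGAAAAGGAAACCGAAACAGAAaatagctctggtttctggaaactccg
Igtp: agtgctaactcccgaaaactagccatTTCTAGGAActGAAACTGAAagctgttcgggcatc
Irf1: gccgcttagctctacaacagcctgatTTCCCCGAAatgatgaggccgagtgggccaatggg

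The Ifit1 stretch (chr19:34640779-34640839, plus strand, -110 to -50) held 2 overlapping ISRE matches and a separate one, all read on the opposite strand. The Isg15 stretch (chr4:156200850-156200910, minus strand, -92 to -32) held 3 overlapping ISRE matches. In Igtp (chr11:58199485-58199545, plus strand, -71 to -11) a GAS match lay 2 bases before an ISRE match. The Irf1 stretch (chr11:53769898-53769958, plus strand, -116 to -56) held a GAS match. Of the 36 members, 20 (55.56%) had an ISRE match in at least 1 of their windows, against 9.76% of 27025 genes. A GAS match was found for 10 of the 36 members (27.78%), against 9.55% of the genes. By class, an ISRE match was found for 11 of 21 type I genes, 6 of 8 interferon-gamma genes and 3 of 7 shared genes. A GAS match was found in 4 of the 21, 4 of the 8 and 2 of the 7. A match is a description of the letters in the window and not a test of binding.

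In WT libraries the same few genes led nearly every cell type. Ly6e, a small protein anchored to the cell surface, had the highest mean level in 3 of the 4, with 1336 ± 44.8 TPM in CD8+ T cells (SD, n = 4), 398 ± 58.7 TPM in CAFs (n = 4) and 328 ± 53.1 TPM in bulk tumours (n = 6). In CD8+ T cells it was followed by Sp100, a component of nuclear bodies (355 ± 72.7 TPM), and Igtp, an immunity-related GTPase (190 ± 35.3 TPM), with no overlap of their ranges, and then by Ifi27 (167 ± 26.8 TPM) and Lgals3bp, a secreted glycoprotein (159 ± 18.5 TPM), whose ranges overlapped with each other and with that of Igtp in this order. In CAFs the second gene was Irf1, the interferon-gamma-induced transcription factor, at 365 ± 94.0 TPM, overlapping with Ly6e and well above Lgals3bp (183 ± 27.8 TPM), Ifi27 (163 ± 25.9 TPM) and Irgm1 (56.1 ± 23.2 TPM).

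In bulk tumours Ifi27 (164 ± 48.5 TPM), Lgals3bp (84.4 ± 30.9 TPM), Xaf1 (41.5 ± 2.44 TPM) and Irf1 (40.6 ± 6.43 TPM) came next. Starved iDFs were led by Bst2, a membrane protein that tethers virus particles (322 ± 83.1 TPM, n = 2), Ifi27 (286 ± 31.9 TPM), Isg15, the ubiquitin-like modifier (220 ± 77.0 TPM), Ly6e (173 ± 24.9 TPM) and Lgals3bp (123 ± 23.3 TPM), and the first 4 overlapped from neighbour to neighbour. No member was at 0 in every WT library of a cell type. Oasl1 was at 0 in some WT CD8+ T cell libraries and Oas3 in some WT CAF libraries.

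The classes were distributed differently over the cell types. The highest WT mean TPM was in CD8+ T cells for 20 of the 46 members, in iDFs for 17, in CAFs for 6 and in bulk tumours for 3. Of the 28 type I genes, 15 were highest in iDFs and 9 in CD8+ T cells, whereas of the 9 interferon-gamma genes 5 were highest in CD8+ T cells, 3 in CAFs and 0 in iDFs. These levels come from libraries of different kits and from cultured or freshly sorted cells, so the orders are descriptions and were not tested.

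**Figure D1:**
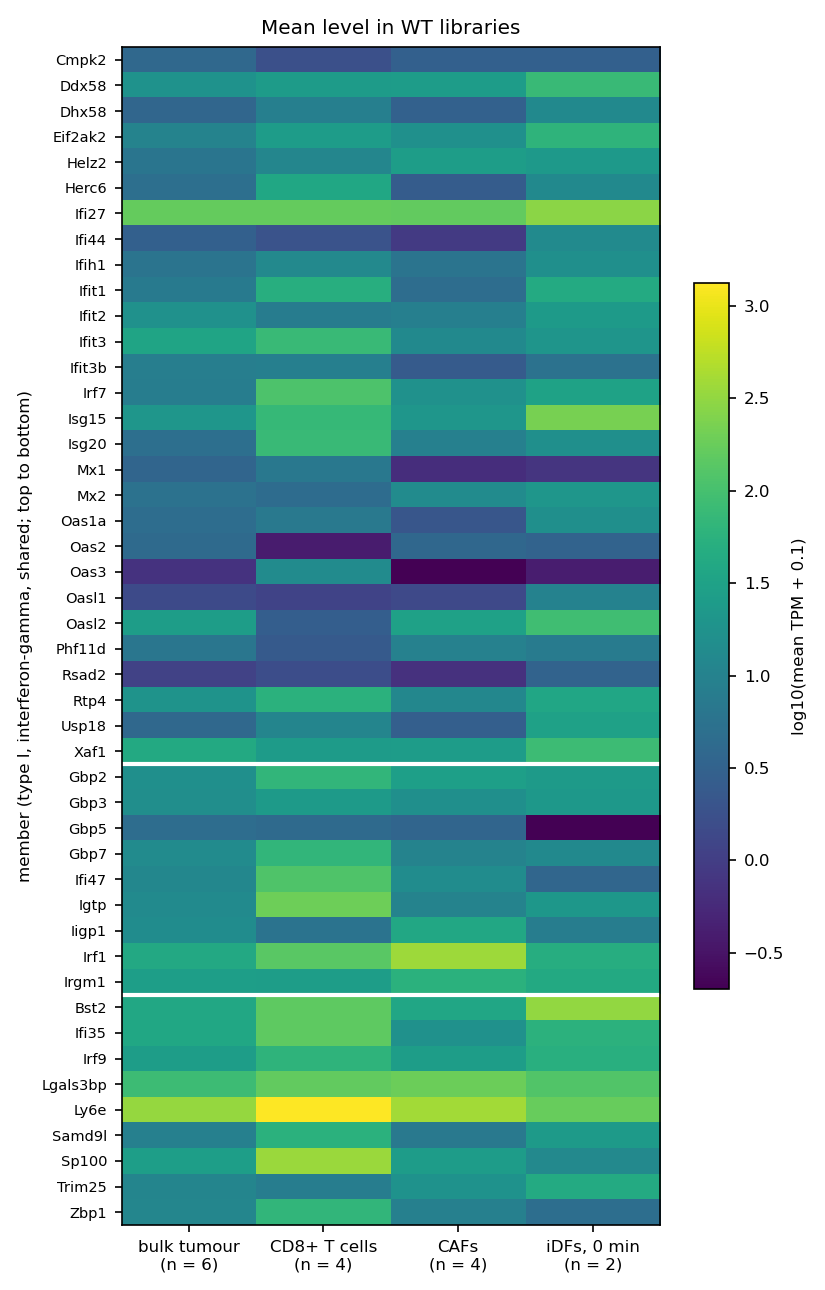
Mean level of each of the 46 members in WT libraries (rows, grouped as type I, interferon-gamma and shared from top to bottom) by cell type (columns), coloured by log10 of the mean TPM plus 0.1. Ly6e is bright in all 4 columns, and the iDF column is bright over many type I genes, with 15 of 28 highest there.

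In CD8+ T cells, sorted from the tumours, most members read lower in dKO than in WT libraries. Of 45 members tested (Oas2 was too low), 40 had a fold change below 0 and 5 above it, with a median log2 fold change of -0.57, against 0.0015 over all genes. None was called by edgeR at an adjusted p under 0.05 with an absolute log2 fold change above 0.75, where 0.495% of all genes were called. At an unadjusted p under 0.05, 22 of the 45 were lower, where 4.26% of all genes were, and 1 was higher. DESeq2 on the same counts called 4 members lower (Ifit1, Ifit3, Ifih1 and Eif2ak2), where it called 169 of 14944 genes lower, and 1 higher (Trim25), where it called 282 genes higher. By CPM, which does not correct for transcript length, every dKO library was below every WT library in 12 members, where 2.96% of genes were. Trim25 was the single member with every dKO library above every WT library, where 4.09% of genes were. By TPM the ranges of Ifih1, Ddx58, Oas3, Usp18 and Sp100, which are among the 12, overlapped. With a length offset in edgeR 19 members were lower at an unadjusted p under 0.05, where 623 of 14944 genes were.

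The lowest p belonged to Ifit1, whose product binds viral RNA that lacks the cell's own cap modifications. It had 31.3, 18.8, 18.9 and 52.5 CPM in dKO CD8+ T cells, against 91.2, 86.2, 168 and 99.6 CPM in WT CD8+ T cells. All 4 dKO libraries were below all 4 WT libraries, with a log2 fold change of -1.87 ± 0.39 (SE) and an adjusted p of 0.101 (edgeR). Its neighbour Ifit3 had 50.0, 22.5, 10.7 and 47.4 CPM in dKO and 115, 113, 116 and 81.1 CPM in WT CD8+ T cells, again apart (log2 fold change -1.71). Ifit3 has a near-identical copy, Ifit3b, and the reads of the pair may be divided between them by the counting.

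RNA sensors moved the same way. Ifih1, the gene of the long double-stranded RNA sensor MDA5, had 18.3, 11.2, 12.6 and 12.7 CPM in dKO and 43.9, 31.9, 33.2 and 22.6 CPM in WT CD8+ T cells. By CPM the groups did not overlap, and the log2 fold change was -1.25 ± 0.26 with an adjusted p of 0.103 (edgeR). By TPM Ifih1 stood at 9.90, 5.14, 4.68 and 4.26 in dKO and 16.5, 11.3, 14.4 and 7.95 in WT CD8+ T cells, which overlapped. Eif2ak2, the gene of the kinase PKR that stops translation when double-stranded RNA is present, had 18.5, 22.0, 19.6 and 20.4 CPM in dKO and 45.6, 37.5, 52.3 and 26.7 CPM in WT CD8+ T cells. The dKO values lay within a narrow band under all WT values (log2 fold change -1.01 ± 0.23, adjusted p 0.134, edgeR). Herc6, the mouse ligase that attaches ISG15, had 35.2, 34.9, 43.2 and 59.0 CPM in dKO and 82.9, 71.5, 63.7 and 55.3 CPM in WT CD8+ T cells, and here the highest dKO library was above the lowest WT library (log2 fold change -0.68 ± 0.15, adjusted p 0.122, edgeR).

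Trim25, a ubiquitin ligase that acts on the RNA sensor RIG-I, went the other way. It had 114, 68.8, 74.4 and 72.9 CPM in dKO CD8+ T cells, against 37.3, 51.8, 20.7 and 34.3 CPM in WT CD8+ T cells. Every dKO library was above every WT library, and the log2 fold change was 1.23 ± 0.29 with an adjusted p of 0.146 (edgeR).

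Among the transcription factors, Irf9, the DNA-binding subunit of the complex that acts on the ISRE, had 83.7, 60.2, 62.5 and 87.2 CPM in dKO and 125, 97.1, 104 and 108 CPM in WT CD8+ T cells, with no overlap (log2 fold change -0.56 ± 0.17, adjusted p 0.258, edgeR). Irf7, which amplifies type I interferon production, had 144, 114, 100 and 152 CPM in dKO and 180, 132, 207 and 165 CPM in WT CD8+ T cells, with overlap (log2 fold change -0.42 ± 0.18, adjusted p 0.482, edgeR). Irf1 had 201, 180, 201 and 197 CPM in dKO and 236, 188, 210 and 213 CPM in WT CD8+ T cells, and these ranges also overlapped (log2 fold change -0.12 ± 0.11, adjusted p 0.778, edgeR).

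**Figure D2:**
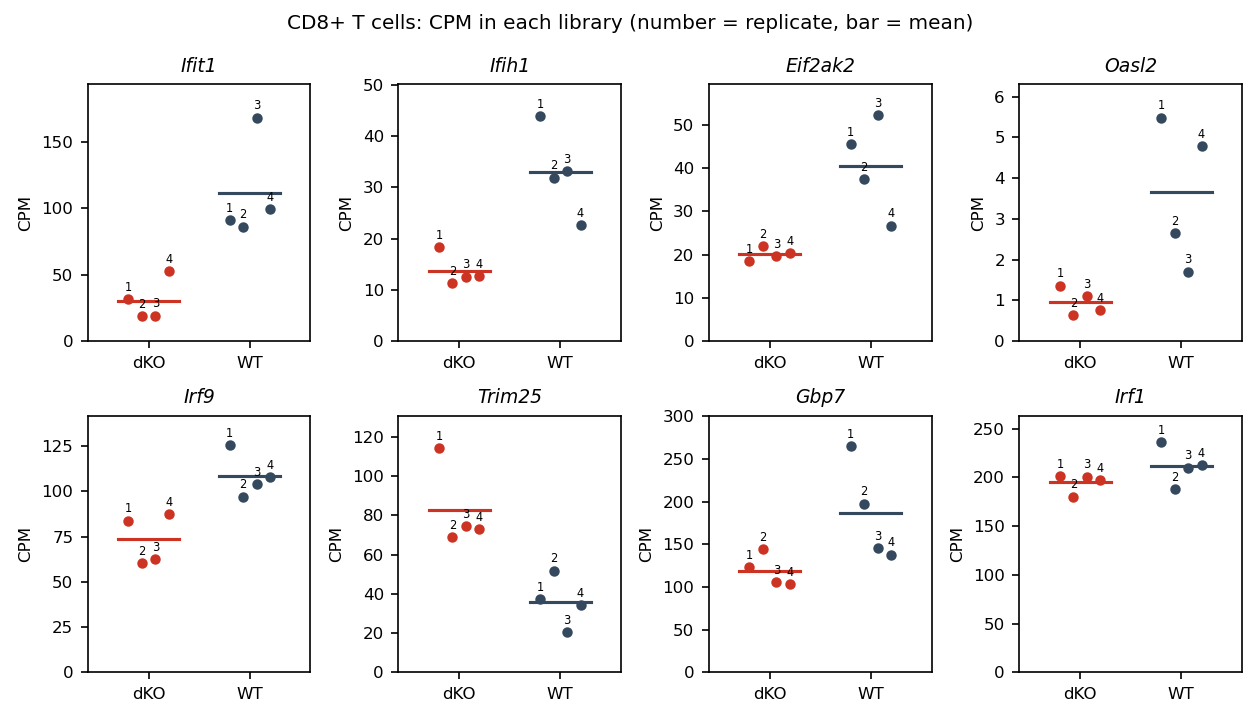
CPM of 8 members in each CD8+ T cell library, dKO left (red) and WT right (dark), with the replicate number above each point and the group mean as a bar. Ifit1, Ifih1, Eif2ak2, Oasl2 and Irf9 are lower in every dKO library, Trim25 is higher in every dKO library, and the 2 groups overlap in Gbp7 and Irf1.

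The shift in CD8+ T cells was greatest in the type I class. The median log2 fold change was -0.78 over 27 type I genes (24 below 0, 17 lower at an unadjusted p under 0.05). Over the 9 interferon-gamma genes it was -0.42, with all 9 below 0 but only 1 lower at that level, and over the 9 shared genes -0.33, with 7 below 0. That gene of the interferon-gamma class was Gbp7, a GTPase of the guanylate-binding family, with 123, 144, 106 and 104 CPM in dKO and 265, 198, 146 and 138 CPM in WT CD8+ T cells (log2 fold change -0.61 ± 0.22, adjusted p 0.377, edgeR). Only the highest dKO library reached into the WT range. Gbp2 had 98.7, 98.2, 65.7 and 115 CPM in dKO and 192, 130, 104 and 116 CPM in WT CD8+ T cells, and its ranges overlapped (log2 fold change -0.50 ± 0.23, adjusted p 0.513, edgeR). The difference between the classes was not tested, and reads shared between the near-identical Gbp genes make their single values uncertain.

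Reads of other cell types differed between the CD8+ T cell libraries. Fibroblast markers summed to 25.2, 190, 699 and 407 TPM in dKO and 273, 0.427, 78.3 and 202 TPM in WT CD8+ T cells, and monocyte and macrophage markers to 122, 102, 408 and 103 TPM in dKO and 123, 129, 42.1 and 313 TPM in WT CD8+ T cells. The 5 dendritic cell markers summed to 218 to 486 TPM in dKO and 42.6 to 399 TPM in WT CD8+ T cells. Melanocyte markers stood at 187 TPM in WT replicate 1, and at 4.38 to 10.5 TPM in the other 7 libraries. The part of these cells in the result was not tested. Neutrophil markers stood at 42.1 TPM in dKO replicate 3 and at 0.401 to 3.33 TPM in the other 7. Without dKO replicate 3, the highest in fibroblast, monocyte and neutrophil markers, and WT replicate 1, the highest in melanocyte markers (a choice made after seeing the data), the median log2 fold change was -0.46, with 38 of 44 members below 0 and 9 lower at an unadjusted p under 0.05, and edgeR called none. At that unadjusted p 434 of 15185 genes were lower in this fit. Without dKO replicate 4 alone, edgeR called Ifit1 lower (log2 fold change -2.35, adjusted p 0.025), where it called 28 of 15723 genes lower.

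In whole tumours the members lay on the other side. Of the 46, 41 had a fold change above 0 and 5 below it, with a median log2 fold change of 0.40, against 0.019 over all genes. None was called by edgeR, where 0.0442% of all genes were called, and none by DESeq2. At an unadjusted p under 0.05, 14 were higher by edgeR, where 3.55% of all genes were, and 16 by DESeq2, where 879 of 18097 genes were, and 0 were lower. Sex was unevenly divided between the genotypes. Without the sex term in edgeR the median log2 fold change was 0.31, with 42 members above 0. In that fit 10 were higher at an unadjusted p under 0.05, where 654 of 18097 genes were. In no member were the 2 groups of tumours apart, where 0.669% of genes were apart in one direction or the other.

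The lowest p in bulk tumours belonged to Samd9l, a gene whose product restrains viruses and cell growth. It ran from 40.3 to 76.7 CPM with a median of 54.3 in dKO tumours, and from 31.5 to 52.8 CPM with a median of 38.8 in WT tumours (log2 fold change 0.62 ± 0.20, adjusted p 0.494, edgeR). Oas2, an enzyme that makes the activator of RNase L, ran from 8.90 to 35.7 CPM (median 18.7) in dKO tumours and from 9.67 to 13.2 CPM (median 10.7) in WT tumours (log2 fold change 0.89 ± 0.30, adjusted p 0.545, edgeR). The lowest dKO tumour was below every WT tumour, and the highest was above all of them. Irf7 ran from 9.75 to 30.2 CPM (median 15.6) in dKO tumours and from 6.47 to 13.3 CPM (median 10.9) in WT tumours, with overlap (log2 fold change 0.93 ± 0.34, adjusted p 0.575, edgeR).

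Eif2ak2 and Trim25 were also among the lowest p. Eif2ak2 ran from 30.5 to 55.0 CPM (median 41.2) in dKO and from 24.0 to 43.5 CPM (median 29.4) in WT tumours (log2 fold change 0.53 ± 0.18, adjusted p 0.554, edgeR). Trim25 ran from 46.4 to 67.6 CPM (median 63.9) in dKO and from 36.6 to 55.9 CPM (median 50.2) in WT tumours (log2 fold change 0.40 ± 0.14, adjusted p 0.574, edgeR). For Irf9 the log2 fold change was 0.25 ± 0.14 (adjusted p 0.707, edgeR), and for Irf1 it was -0.017 ± 0.12 (adjusted p 0.980, edgeR). The dKO tumours overlapped with the WT tumours in all of these genes.

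By class, all 28 type I genes were above 0 in bulk tumours, with a median log2 fold change of 0.58 and 11 higher at an unadjusted p under 0.05. The 9 interferon-gamma genes had a median of 0.11, with 6 above 0 and none at that level. Gbp3 (0.30 ± 0.18) and Gbp5 (0.29 ± 0.17) had the lowest p of them on the log2 scale. The 9 shared genes had a median of 0.36, with 7 above 0 and 3 higher at that level. Within batches 1, 2 and 3, the median log2 ratio of dKO to WT means over the members was 0.35, 0.31 and 0.26. For the type I genes it was 0.32, 0.34 and 0.40, and for the interferon-gamma genes 0.41, -0.086 and 0.093, so that the interferon-gamma class did not keep its sign over the batches. These ratios carry no sex term. Batch 1 held 1 tumour of each sex in both genotypes. In batch 2 the dKO tumours were both from males and the WT tumours from 1 of each sex, and in batch 3 the dKO tumours were from males and the WT tumours from females, so that genotype and sex cannot be told apart within batch 3. In these tissues, fewer cells of a type and less RNA per cell cannot be told apart.

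The bulk counts changed with single tumours of both genotypes. dKO replicate 2 was the highest of the 12 tumours in 20 of 46 members and dKO replicate 5, the only dKO tumour from a female, in 13. Without replicate 2 the median log2 fold change was 0.30 with 6 members higher at an unadjusted p under 0.05, where 531 of 18258 genes were. Without replicate 5 it was 0.29 with 8 members higher, where 1424 of 18412 genes were. Without replicate 5 the members divided into 33 above 0 and 13 below, and the interferon-gamma class had a median of -0.089, with 2 above 0 and 7 below. Without WT replicate 3 or WT replicate 4, 5 members were higher at that level in each case, where 516 of 18312 and 550 of 18369 genes were. Without dKO replicate 6 there were 22, where 671 of 18358 genes were. T cell markers summed to 13.6 to 42.4 TPM in dKO tumours and 20.5 to 33.2 TPM in WT tumours, and monocyte and macrophage markers to 572 to 980 TPM in dKO and 326 to 871 TPM in WT tumours. Fibroblast markers summed to 2905 to 8414 TPM in dKO and 2290 to 3652 TPM in WT tumours, and neutrophil markers to 96.1 to 2019 TPM (median 480) in dKO and 275 to 3725 TPM (median 1005) in WT tumours. NK cell markers summed to 1.13 to 5.10 TPM in dKO and 0.71 to 2.63 TPM in WT tumours, and skeletal muscle markers to 274 to 1071 TPM in dKO and 424 to 3086 TPM in WT tumours. The ranges overlapped in each list, and the part of these cells in the result was not tested.

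In CAFs most members had a fold change above 0, and their median turned on single libraries. Of 44 members tested (Mx1 and Oas3 were too low), 38 had a fold change above 0 and 6 below it, with a median log2 fold change of 0.21, against 0.0018 over all genes. None was called by edgeR, where 5.48% of all genes were called, and at an unadjusted p under 0.05 there was 1 higher and 1 lower, where 26.0% of all genes passed. DESeq2 called 1 lower (Xaf1), where it called 860 of 15786 genes lower. No member had its groups apart, where 14.0% of genes did. dKO replicate 3 had the highest value of the 8 CAF libraries in 44 of 46 members, at a median log2 ratio of 1.33 over the mean of the other 3 dKO libraries (0.26 to 3.24). Without it the median log2 fold change was -0.12, with 13 members above 0 and 31 below, and for 36 of the 46 members the mean of the other 3 dKO libraries was below the WT mean. Without WT replicate 3 the median was 0.044, with 25 members above 0 and 19 below.

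Ifit1 shows this most plainly, with 2.295, 5.30, 56.6 and 9.05 CPM in dKO CAFs and 6.73, 3.42, 6.43 and 9.77 CPM in WT CAFs. Only replicate 3 was outside the range of the others on the high side. Irf7 had 8.80, 11.5, 39.4 and 15.6 CPM in dKO and 13.9, 10.3, 13.0 and 15.3 CPM in WT CAFs (log2 fold change 0.37 ± 0.36, adjusted p 0.563, edgeR), and without replicate 3 its log2 fold change was -0.089. T cell markers summed to 5.399 to 9.26 TPM in dKO and 3.24 to 8.28 TPM in WT CAFs, and monocyte and macrophage markers to 14.0 to 30.3 TPM in dKO and 18.6 to 35.8 TPM in WT CAFs. dKO replicate 3 had 6.76 TPM of T cell markers, within the range of the others, and 14.0 TPM of monocyte and macrophage markers, the lowest of the 8 CAF libraries. Melanocyte markers summed to 79.3 to 310 TPM in dKO and 332 to 485 TPM in WT CAFs. Keratinocyte markers summed to 13.7 to 40.3 TPM in dKO and 40.6 to 77.7 TPM in WT CAFs. In both lists the genotypes were apart, and the part of these reads in the result was not tested.

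Irf1 and Xaf1 stood apart from that pattern. Irf1 had 526, 375, 631 and 519 CPM in dKO CAFs and 352, 334, 229 and 407 CPM in WT CAFs. In all, 3 of the 4 dKO libraries were above every WT library, and the log2 fold change was 0.62 ± 0.21 with an adjusted p of 0.106 (edgeR), or 0.52 without replicate 3. Xaf1, whose product promotes cell death, had 5.19, 10.7, 27.8 and 16.7 CPM in dKO and 25.1, 20.01, 26.9 and 31.1 CPM in WT CAFs. Here 3 of 4 dKO libraries were below every WT library, with a log2 fold change of -0.92 ± 0.32 and an adjusted p of 0.121 (edgeR). Without dKO replicate 3 edgeR called Xaf1 lower (log2 fold change -1.20, adjusted p 0.048), where it called 613 of 16069 genes lower. These are values without a correction for transcript length. By TPM Xaf1 stood at 19.8, 15.8, 40.0 and 23.9 in dKO and 24.2, 21.4, 28.9 and 29.9 in WT CAFs, and with a length offset in edgeR its log2 fold change was -0.10 ± 0.19 (adjusted p 0.806).

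Helz2, an RNA helicase, had 134, 166, 304 and 206 CPM in dKO and 136, 143, 121 and 176 CPM in WT CAFs, with overlap (log2 fold change 0.44 ± 0.20, adjusted p 0.224, edgeR). Samd9l (0.30 ± 0.15), Lgals3bp (0.23 ± 0.14), Irf9 (0.20 ± 0.15) and Irgm1 (0.28 ± 0.41) had smaller log2 fold changes, none of them called. By class the median log2 fold change was 0.25 over 26 type I genes, 0.096 over the 9 interferon-gamma genes and 0.22 over the 9 shared genes. Without replicate 3 it was -0.15 for the type I genes and -0.28 for the interferon-gamma genes, of which 8 of 9 were then below 0.

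**Figure D3:**
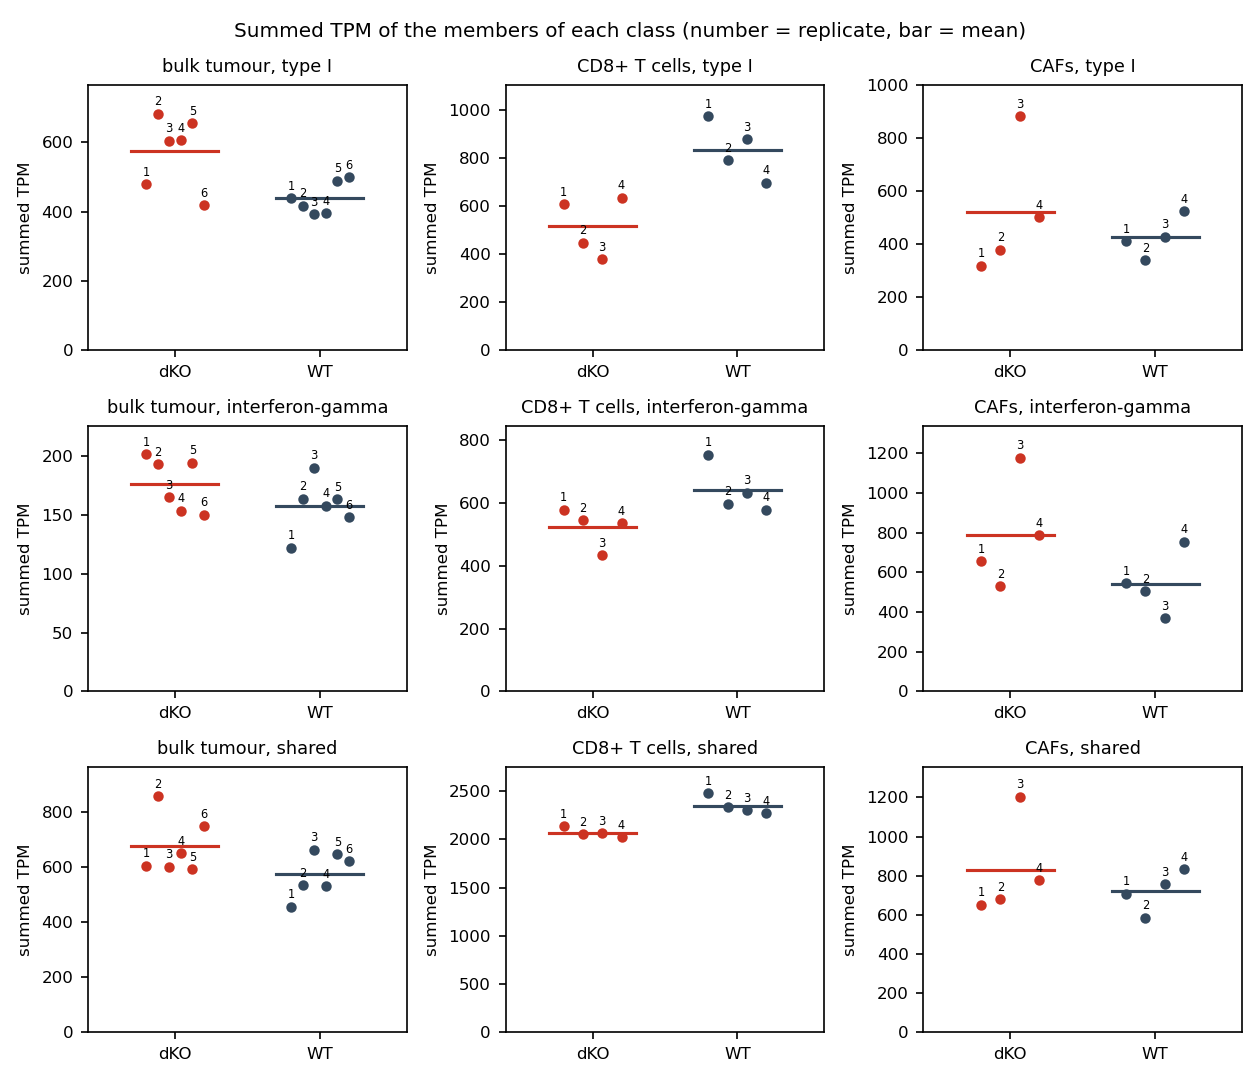
Summed TPM of the members of each class (rows) in each library of bulk tumours, CD8+ T cells and CAFs (columns), dKO left (red) and WT right (dark), with replicate numbers and group means as bars. The type I sums of CD8+ T cells are lower in all dKO libraries (380 to 636 TPM) than in any WT library (698 to 977 TPM), and in CAFs dKO replicate 3 is the highest library in each class.

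The sums by class put these differences on one scale. The type I genes summed to 609, 448, 380 and 636 TPM in dKO CD8+ T cells, against 977, 791, 880 and 698 TPM in WT CD8+ T cells. All dKO libraries were below all WT libraries. The shared genes summed to 2139, 2052, 2062 and 2019 TPM in dKO and 2480, 2329, 2299 and 2268 TPM in WT CD8+ T cells, also apart, a sum that is mostly Ly6e. The interferon-gamma genes summed to 578, 546, 433 and 535 TPM in dKO and 753, 597, 632 and 578 TPM in WT CD8+ T cells, and touched at the edge. In bulk tumours the type I sums were 479, 682, 604, 605, 654 and 418 TPM in dKO and 439, 417, 392.3, 395, 489 and 498 TPM in WT tumours, of which 4 dKO tumours were above every WT tumour.

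Whether the genotype effect differed between 2 cell types was tested in a joint edgeR fit. Such a difference can pass the test without a change of opposite sign in each cell type, so opposite signs were not tested. The effect in CD8+ T cells minus that in bulk tumours was below 0 for 44 of 46 members, with a median log2 difference of -1.08, against -0.067 over all genes. At an unadjusted p under 0.05, 28 of 46 were lower, where 7.61% of all genes were. edgeR called 3 lower, where 0.341% of all genes were called. These were Ifih1 (log2 difference -1.77 ± 0.34, adjusted p 0.027), Eif2ak2 (-1.57 ± 0.31, adjusted p 0.030) and Oasl2 (-2.66 ± 0.54, adjusted p 0.037).

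Each of the 3 had a fold change below 0 in CD8+ T cells and above 0 in bulk tumours. In neither of these alone did edgeR call any of them. Oasl2, a member of the oligoadenylate synthetase family, had 1.36, 0.640, 1.11 and 0.753 CPM in dKO and 5.48, 2.65, 1.71 and 4.79 CPM in WT CD8+ T cells. The 2 groups were apart at a low level. Leaving out 1 library at a time ended the call of Ifih1 in 4 of 20 cases, that of Eif2ak2 in 11 and that of Oasl2 in 14, with adjusted p of 0.0501 to 0.138 in edgeR. For Ifih1 these were bulk dKO replicate 5 and WT replicates 1, 3 and 4. For Eif2ak2 they were bulk dKO replicates 1 to 5, bulk WT replicates 3 to 6, and replicate 1 of dKO and of WT CD8+ T cells. For Oasl2 they were bulk dKO replicates 2 to 5, all bulk WT replicates, and CD8+ T cell dKO replicates 2 and 3 and WT replicates 1 and 4. Without CD8+ T cell dKO replicate 3 and WT replicate 1 together, Ifih1 alone was called (log2 difference -1.56), where 116 of 21012 genes were called lower. DESeq2 called 12 members lower, where it called 415 of 20537 genes lower, and limma with voom and a weight per cell type called none, with 23 lower at an unadjusted p under 0.05, where 1010 of 20537 genes were.

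The next members in order of p were Ifit3 (log2 difference -2.26 ± 0.52, adjusted p 0.063, edgeR) and Samd9l (-1.40 ± 0.34, adjusted p 0.073, edgeR). Irf9 had a log2 difference of -0.86 ± 0.23, Irf7 one of -1.39 ± 0.43 and Irf1 one of -0.14 ± 0.18. By class, 22 of the 28 type I genes were lower at an unadjusted p under 0.05, with a median log2 difference of -1.42. In the interferon-gamma class 2 of 9 were, with a median of -0.26, and in the shared class 4 of 9, with a median of -0.80. Gbp7 (-0.79 ± 0.27) and Gbp3 (-1.09 ± 0.43) were the 2 interferon-gamma genes with the lowest p.

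Against CAFs the difference had the same sign. The effect in CD8+ T cells minus that in CAFs was below 0 for 43 of 46 members, with a median log2 difference of -0.82, and 17 were lower at an unadjusted p under 0.05, where 7.55% of all genes were. edgeR called none, where 1.08% of all genes were called, and DESeq2 called 3 lower, where it called 322 of 18752 genes lower. The lowest p belonged to Ifih1 (-1.59 ± 0.38, adjusted p 0.070, edgeR), Eif2ak2 (-1.11 ± 0.29, adjusted p 0.097, edgeR), Samd9l (-1.10 ± 0.32, adjusted p 0.138, edgeR), Oasl2 (-2.14 ± 0.63, adjusted p 0.143, edgeR) and Helz2 (-0.999 ± 0.297, adjusted p 0.144, edgeR). The median was -1.13 for the type I class, -0.56 for the interferon-gamma class and -0.36 for the shared class. Without CAF dKO replicate 3 the median over the members was -0.46, with 34 of 46 below 0. In that fit 12 were lower at an unadjusted p under 0.05, where 1180 of 19309 genes were.

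The effect in CAFs minus that in bulk tumours had a median log2 difference of -0.20, with 14 members above 0 and 32 below. None was called by edgeR, where 0.687% of all genes were called, or by DESeq2. At an unadjusted p under 0.05 there was 1 higher (Irf1, 0.66 ± 0.24, adjusted p 0.288, edgeR) and 1 lower (Xaf1, -1.04 ± 0.36, adjusted p 0.243, edgeR), where 11.1% of all genes passed. With a length offset in edgeR 1 member was higher and 0 were lower at that level, where 772 and 1269 of 19207 genes were. Eif2ak2 (-0.47 ± 0.25), Ddx58, the gene of RIG-I (-0.32 ± 0.22), Samd9l (-0.31 ± 0.27), Zbp1, a sensor of left-handed nucleic acid (-0.58 ± 0.49), Igtp (0.46 ± 0.47), Irf7 (-0.56 ± 0.53) and Irf9 (-0.03 ± 0.21) were not called. Without CAF dKO replicate 3 the median was -0.53, with 42 of 46 below 0. In that fit 7 were lower at an unadjusted p under 0.05, where 1176 of 19637 genes were. The 3 differences share the samples of each cell type and are not independent of each other.

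**Figure D4:**
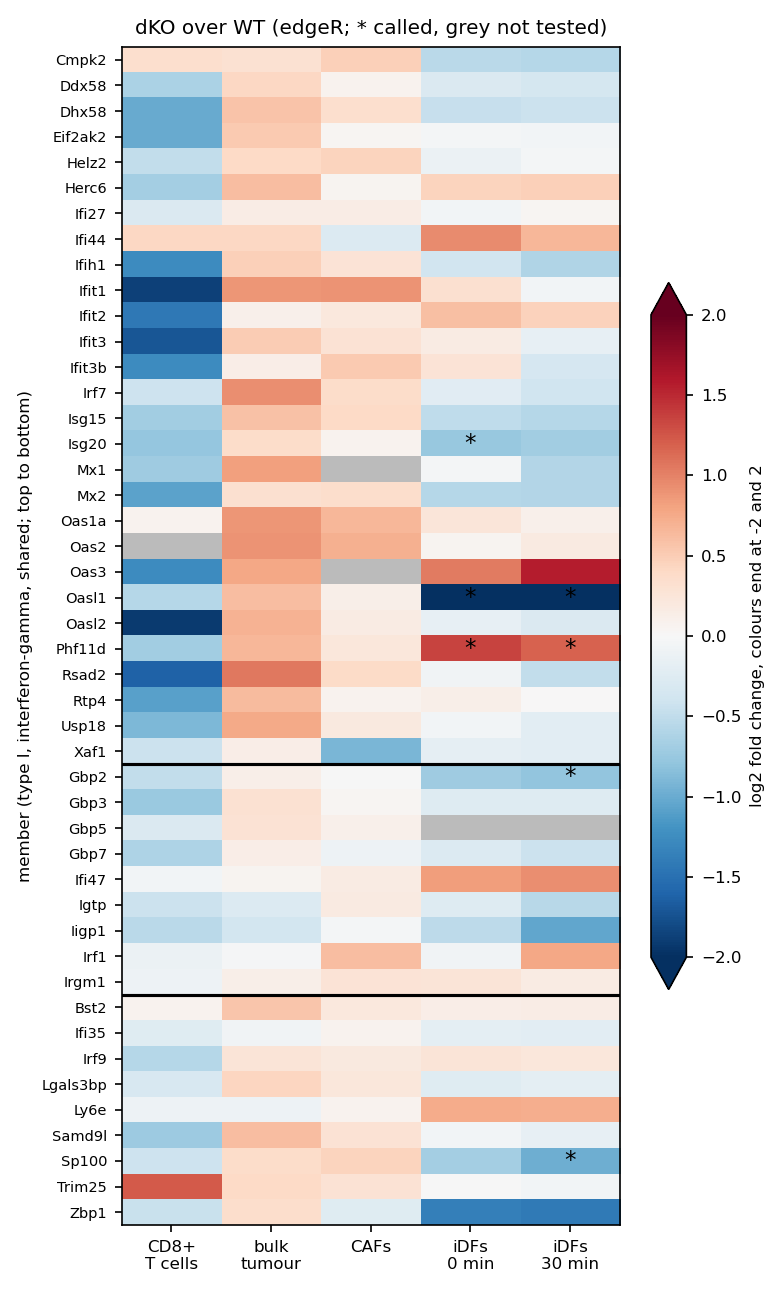
log2 fold change of dKO over WT for the 46 members (rows, by class) in 5 comparisons (columns), red above 0 and blue below, with an asterisk on called members and grey where a member was not tested. The CD8+ T cell column is blue for 40 of 45 members, the bulk column red for 41 of 46, and asterisks stand only in the 2 iDF columns.

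In iDFs the members lay on both sides of 0, and the few that were called were near in number to the share over all genes. At 0 min, 16 of 45 members tested (Gbp5 was too low) had a fold change above 0 and 29 below, with a median log2 fold change of -0.072. edgeR called 1 higher, where 3.93% of all genes were called higher, and 2 lower, where 5.11% were called lower. At 30 min it called 1 higher, where 3.88% of all genes were, and 3 lower, where 5.08% were, and the median was -0.21. With 2 libraries a group, every dKO library was above every WT library in 6 members at 0 min, where 34.5% of genes were, and below in 5, where 34.8% were. At 30 min the counts were 10 above and 20 below, where 31.6% and 33.6% of genes were. Single libraries moved the members together. At 0 min dKO replicate 1 was the lowest of the iDF libraries in 28 of 46 members. There dKO replicate 2 was the highest in 19 and WT replicate 2 in 18. The median log2 fold change at 0 min was 0.20 without dKO replicate 1 and -0.51 without dKO replicate 2 of that time.

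The largest difference was in Oasl1, which in mice restrains the translation of Irf7. At 0 min it had 1.56 and 2.02 CPM in dKO iDFs, against 9.18 and 12.8 CPM in WT iDFs. At 30 min it had 2.03 and 1.23 CPM in dKO iDFs, against 10.4 and 11.6 CPM in WT iDFs. It was lower in dKO at both times, with log2 fold changes of -2.62 ± 0.25 (adjusted p 1.0e-04, edgeR) and -2.74 ± 0.26 (adjusted p 9.9e-05, edgeR). It remained called without any one of the libraries.

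Isg20, an RNA exonuclease, had 4.24 and 3.96 CPM in dKO and 6.61 and 7.35 CPM in WT iDFs at 0 min. It was lower in dKO, just past the fold threshold (log2 fold change -0.76 ± 0.13, adjusted p 0.0021, edgeR). Its call was lost without dKO replicate 2 (-0.72) or WT replicate 2 (-0.69) at 0 min, and with a length offset (-0.70). Sp100 had 5.24 and 6.01 CPM in dKO and 11.1 and 10.95 CPM in WT iDFs at 30 min. It was lower in dKO at this time (log2 fold change -0.97 ± 0.19, adjusted p 0.0042, edgeR) and was called without any one library. At 0 min it was under the fold threshold (-0.69 ± 0.18, adjusted p 0.018, edgeR).

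Gbp2 had 23.2 and 24.9 CPM in dKO and 39.5 and 43.6 CPM in WT iDFs at 30 min, and was called lower in dKO (log2 fold change -0.79 ± 0.20, adjusted p 0.028, edgeR). At 0 min it had 16.5 and 24.7 CPM in dKO and 30.2 and 37.0 CPM in WT iDFs and was not called (-0.71 ± 0.20, adjusted p 0.041, edgeR). The groups were apart at both times. Phf11d was the single member called higher, with 10.5 and 18.1 CPM in dKO and 4.74 and 6.54 CPM in WT iDFs at 0 min (log2 fold change 1.34 ± 0.29, adjusted p 0.013, edgeR). At 30 min it had 12.1 and 13.8 CPM in dKO and 5.21 and 6.18 CPM in WT iDFs (1.18 ± 0.29, adjusted p 0.024, edgeR). The call of Phf11d at 0 min was lost without WT replicate 1 of that time (adjusted p 0.081, edgeR). At 30 min the calls of Gbp2 and Phf11d were lost without any one of the 4 libraries of that time (adjusted p from 0.074 to 0.149, edgeR). Phf11d belongs to a family of near-identical copies, as the Gbp genes do, and its single value is uncertain.

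Ly6e, the most abundant member in the tumour cell types, had 109 and 129 CPM in dKO and 65.5 and 77.2 CPM in WT iDFs at 0 min. It was apart in both times and had a low p, but its log2 fold changes of 0.74 ± 0.11 at 0 min (adjusted p 0.0021, edgeR) and 0.73 ± 0.11 at 30 min (adjusted p 0.0023, edgeR) were just under the threshold. Herc6 was higher by 0.48 ± 0.088 on the log2 scale at 30 min (adjusted p 0.0030, edgeR), also under the threshold. Ifi47 at 0 min (0.83 ± 0.35, adjusted p 0.109), Irf9 (0.26 ± 0.19 at 0 min and 0.22 ± 0.20 at 30 min) and Irf7 (-0.23 ± 0.48 and -0.40 ± 0.50) did not pass the test of edgeR.

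**Figure D5:**
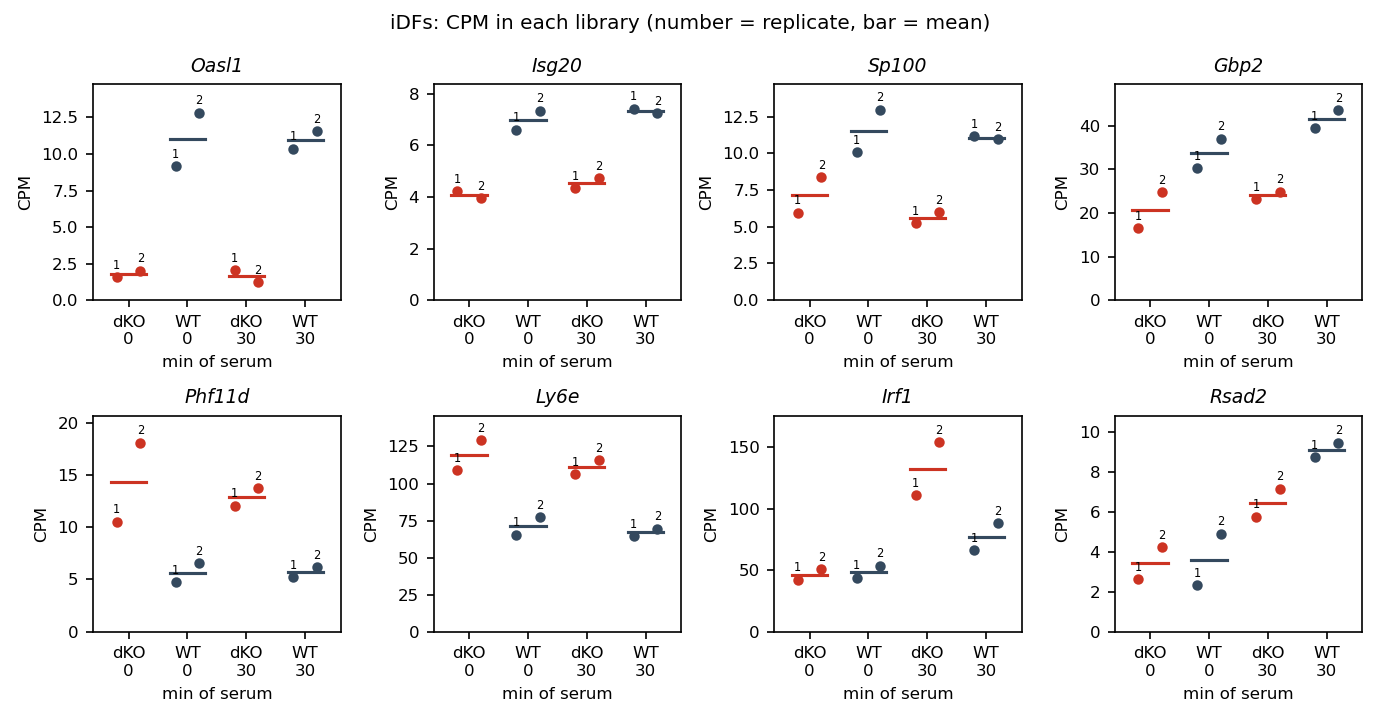
CPM of 8 members in each iDF library, dKO (red) left of WT (dark) at 0 and at 30 min of serum, with replicate numbers and group means as bars. Oasl1 is at 1.23 to 2.03 CPM in dKO and 9.18 to 12.8 CPM in WT libraries, Phf11d and Ly6e are higher in dKO at both times, and Irf1 and Rsad2 are higher in CPM at 30 min than at 0 min in both genotypes.

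Serum moved few members within 30 min. In dKO iDFs edgeR called 1 member higher, Irf1, where 2.14% of all genes were called higher. Irf1 had 111 and 154 CPM at 30 min and 42.3 and 50.7 CPM at 0 min in dKO iDFs. It rose in every library (log2 fold change 1.51 ± 0.24, adjusted p 0.026, edgeR). The call was lost without dKO replicate 1 (adjusted p 0.140) or 2 (adjusted p 0.125) at 0 min, dKO replicate 2 at 30 min (adjusted p 0.094) or WT replicate 1 at 0 min (adjusted p 0.051), all in edgeR. In WT iDFs Irf1 had 66.2 and 88.1 CPM at 30 min and 43.9 and 53.8 CPM at 0 min, and was not called (0.66 ± 0.24, adjusted p 0.239, edgeR).

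No member was called for serum in WT iDFs, where 1.95% of all genes were called in either direction. At an unadjusted p under 0.05, 2 members were higher, where 1621 of 15047 genes were. DESeq2 called 1 higher (Rsad2), where it called 264 of 15047 genes higher. The lowest p was that of Rsad2, the gene of the antiviral enzyme viperin. In dKO iDFs it had 5.75 and 7.15 CPM at 30 min and 2.61 and 4.21 CPM at 0 min (log2 fold change 0.92 ± 0.36, adjusted p 0.177, edgeR). In WT iDFs it had 8.71 and 9.45 CPM at 30 min and 2.31 and 4.90 CPM at 0 min (1.34 ± 0.36, adjusted p 0.094, edgeR). By CPM the times were apart in both genotypes. By TPM, which allows for transcript length, Rsad2 stood at 2.37 and 2.88 at 30 min and 1.98 and 2.75 at 0 min in dKO iDFs, which overlapped, and at 3.81 and 4.04 at 30 min and 2.84 and 3.65 at 0 min in WT iDFs. With a length offset in edgeR its log2 fold change was 0.25 ± 0.22 in dKO (adjusted p 0.627) and 0.34 ± 0.22 in WT iDFs (adjusted p 0.545), and 1 member in place of 2 was higher at an unadjusted p under 0.05 in WT iDFs. Helz2 (0.49 ± 0.28 in dKO and 0.40 ± 0.28 in WT iDFs) and Gbp2 (0.23 ± 0.20 in dKO and 0.31 ± 0.19 in WT iDFs) were not called.

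Whether the serum response differed between genotypes was tested by the interaction term. No member was called by edgeR, where 0.0133% of all genes were called, 0 had an unadjusted p under 0.05, and DESeq2 called 0. For Irf1 the response was larger in dKO iDFs by 0.85 ± 0.34 on the log2 scale (adjusted p 1.00, edgeR), which did not pass the test. At 30 min itself Irf1 had 111 and 154 CPM in dKO iDFs, against 66.2 and 88.1 CPM in WT iDFs, with a log2 fold change of 0.78 ± 0.24 (adjusted p 0.064, edgeR). The other members with the lowest p in their class (Ifit2, Ifit3b, Sp100, Igtp and Samd9l) all had an adjusted p of 1.00 (edgeR).

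Other genes of the pathway were counted from a fixed list. Of 15 receptor and signalling genes, edgeR called 1 of 14 tested higher in dKO CD8+ T cells, where it called 0.495% of all genes in either direction, and 1 of 15 lower in dKO CAFs, where it called 5.48%. It called none in bulk tumours or in the genotype comparisons of iDFs. The gene in CD8+ T cells was Ifngr2, the signalling chain of the interferon-gamma receptor, with 72.5, 51.2, 65.4 and 47.2 CPM in dKO and 14.4, 22.4, 12.8 and 20.2 CPM in WT CD8+ T cells (log2 fold change 1.76, adjusted p 0.031, edgeR). Every dKO library was above every WT library. The gene in CAFs was Ifnlr1, a chain of the type III interferon receptor, which was read at under 2 CPM.

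Of 9 genes that trigger interferon production, 7 were tested in CAFs and 1 was called, Irf5, lower in dKO CAFs (log2 fold change -0.85). Of all genes, 4.03% were called lower in dKO CAFs. Of 36 further induced genes, none was called in bulk tumours (36 tested) or CD8+ T cells (35 tested). In dKO CAFs 1 of 33 tested was called higher, where 1.45% of all genes were. This was Slfn8 (2.07), a gene of the Schlafen family, which was also the one called higher in dKO iDFs at 0 min (2.22) and at 30 min (2.76). In iDFs 31 of the 36 were tested, and of all genes 3.93% were called higher in dKO at 0 min and 3.88% at 30 min. Lower in dKO iDFs were 4 of these 31 at 0 min, where 5.11% of all genes were, and 5 at 30 min, where 5.08% were. Among them Gbp9 had 2.77 and 3.60 CPM in dKO and 15.9 and 19.8 CPM in WT iDFs at 0 min, with a log2 fold change of -2.49, and Trim30a had 3.28 and 4.93 CPM in dKO and 8.44 and 8.95 CPM in WT iDFs, with -1.09. With serum, 1 of the 31 was called higher in dKO iDFs, where 2.14% of all genes were, the chemokine gene Cxcl10 (2.76).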

How the data were processed

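RNA-seq was measured in 36 mouse libraries. The authors prepared directional poly-A libraries for bulk tumours, CAFs and iDFs and low-input libraries for CD8+ T cells, and quantified single reads with Salmon 1.2.1 against GRCm38.p6 transcripts. The deposited files hold estimated counts per transcript, which are not normalized, TPM, which Salmon scales by transcript length and library total, and transcript lengths.

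Here the estimated counts of the transcripts of each gene were added up by Gencode release 21 of GRCm38 (139791 of 140992 transcripts, 99.15%, and transcripts without a gene held 0.246% to 0.521% of counts) and rounded to whole numbers. TPM was summed per gene for levels. No 2 libraries were identical. Models were fitted with edgeR 4.0.16 under R 4.3.3 (minimum count 10, minimum total 15, TMM, robust quasi-likelihood tests, 2-sided) over all genes tested, with terms for batch and sex in bulk tumours, sex in CD8+ T cells and CAFs, and 1 fit of the 4 iDF groups. Differences between cell types came from joint fits of the libraries of both. Called genes had an adjusted p (Benjamini-Hochberg) below 0.05 and a log2 fold change beyond 0.75 either way. Both cutoffs are those of the study's methods, which used DESeq2 and another adjustment of p. The SE of a log2 value was worked back from edgeR's test, as its size over the square root of the F statistic. Within-batch ratios added 0.5 CPM. DESeq2 1.42.0 and limma 3.58.1 served as alternatives, beside other scaling, filters, covariates, a length offset and leaving out libraries. The tests were tested on simulated data. Which exons the knockout alleles lack was not used here, so counts of H2afy and H2afy2 do not check the labels. Tables were handled with pandas 2.3.3 and numpy 2.4.6 under Python 3.11.15.

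Members, classes and lists were chosen with earlier results of these data known. Named were called members (up to 8 in each direction, or those of smallest p up to 4), the 2 of smallest p in each class, Irf1, Irf7 and Irf9, the 5 of smallest p in CD8+ T cells minus CAFs, and the 5 highest levels per cell type. Ifit3 in CD8+ T cells, Ifit1 in CAFs, and the single values of other pathway genes and marker sums were added after their values were seen. Gene names for members and windows came from the annotation and from RefSeq, and 10 members without a window were Iigp1, Usp18, Zbp1, Mx2, Dhx58, Ifi27, Rtp4, Oas2, Ly6e and Mx1. Some alleles and genes are not reported here.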

Additional observations from a re-analysis of the deposited data

Results flagged for a closer look

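In 72 groups of 4 or 6 libraries, 1 library lay far from the others in 4 (a gap above Dixon's critical value), and chance gives about 1 in 20 such groups. Trim25 stood at 114 CPM in CD8+ T cell dKO replicate 1, the highest of its group. Ifit1 stood at 168 CPM in CD8+ T cell WT replicate 3, the highest of its group. Lgals3bp stood at 342 CPM in CAF dKO replicate 3, the highest of its group, and at 178 CPM in CAF WT replicate 2, the lowest of its group.

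The genotype effect differed between CD8+ T cells and bulk tumours, by a test of the difference in edgeR, in 3 members. The log2 differences were -1.77 for Ifih1, -2.66 for Oasl2 and -1.57 for Eif2ak2. Leaving out 1 library at a time ended the call in 4 of 20 cases for Ifih1, 14 for Oasl2 and 11 for Eif2ak2. With limma and voom 0 members were called.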

How the results depend on the processing

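The number of members called changed with the tool, the filter on low counts and the iDF model. With DESeq2 the counts were 5 in CD8+ T cells, 1 in CAFs, 1 for serum in WT iDFs, 12 for CD8+ T cells minus bulk tumours and 3 for CD8+ T cells minus CAFs. With no filter on low counts there were 9 in CD8+ T cells, where 439 genes were called higher and 405 lower of 30221. There were 0 for serum in dKO iDFs, where 319 genes were higher and 224 lower of 26714. Without a fold threshold there were 8 in iDFs at 0 min, where 2440 genes were called higher and 2289 lower of 15047. At 30 min there were 8, where 2524 genes were higher and 2257 lower. Fitting only the 2 groups compared gave 7 at 30 min, where 541 genes were higher and 685 lower of 14429. For CD8+ T cells minus bulk tumours the count was 1 with a length offset, 0 with limma and voom, and 1 without CD8+ T cell dKO replicate 3 and WT replicate 1 together, an alternative chosen after seeing the data. Of all genes, 56 of 20537, 26 of 20537 and 116 of 21012 were called lower in these fits. The cause was not tested. By CPM in place of TPM, which does not correct for length, 1 of the 5 highest members of starved WT iDFs stayed among the 5 highest.

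The labels do not say what the iDF replicate number marks. Over all genes, deviations of same-numbered samples correlated at 0.018 to 0.132, with 2 replicates. In the members, replicate 2 had the higher type I sum in each group. At 0 min the sums of replicates 1 and 2 were 815 and 1256 TPM in dKO and 962 and 1380 TPM in WT iDFs. At 30 min they were 853 and 994 TPM in dKO and 1052 and 1171 TPM in WT iDFs. The main fit has no term for this. With the replicate number as a block the counts were 5 at 0 min, 8 at 30 min, 2 for serum in dKO iDFs, 1 for serum in WT iDFs and 1 for the interaction (Irf1). Of all 15047 genes, the block gave 624 higher and 813 lower at 0 min and 625 and 812 at 30 min. For serum it gave 371 and 217 in dKO and 282 and 105 in WT iDFs, and for the interaction 5 and 1.

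Among named members the sign turned for values close to 0. With a length offset these were bulk Irf1 (0.064), Irf7 for serum in dKO iDFs (0.053), for serum in WT iDFs (0.018) and for the interaction (0.035), Irf9 for the interaction (0.068) and Irf9 for CAFs minus bulk tumours (0.079), and without the sex term bulk Irf1 (0.064).

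Leaving out 1 library at a time, where a lone sample of an iDF group is assumed to vary like the other groups, gave counts of 0 to 1 in CD8+ T cells, 0 to 1 in CAFs, 3 to 6 in iDFs at 0 min, 2 to 6 at 30 min, 0 to 1 for serum in dKO iDFs, 0 to 1 for serum in WT iDFs, 0 to 7 for CD8+ T cells minus bulk tumours and 0 to 2 for CD8+ T cells minus CAFs. The calls over all genes moved with the library left out as well. For CD8+ T cells the 1 call came without dKO replicate 4, where 29 genes were higher and 28 lower of 15723. For CAFs the 1 call came without dKO replicate 3, where 279 were higher and 613 lower of 16069. For CD8+ T cells minus CAFs 2 came without CD8+ T cell WT replicate 2, where 208 were higher and 353 lower of 19321. The iDF fits had a lone sample in a group, so their counts were not set against a share. The main iDF fit called 592 genes higher and 769 lower of 15047 at 0 min. For CD8+ T cells minus bulk tumours, 7 members were called without CD8+ T cell WT replicate 2, where 154 genes were higher and 323 lower of 21157. Without bulk WT replicate 4 there were 0, where 3 genes were higher and 3 lower of 20491. Median log2 values of the members ran from -0.12 to 0.36 in CAFs, -0.51 to 0.20 in iDFs at 0 min, -0.42 to 0.28 for serum in dKO iDFs, -0.41 to 0.27 for the interaction and -1.21 to -0.84 for CD8+ T cells minus bulk tumours. Named members that turned ran from -0.0027 to 0.54 (bulk Gbp3), -0.089 to 0.014 (bulk Irf1), -0.097 to 0.55 (CAF Irgm1), -0.089 to 0.57 (CAF Irf7), -0.21 to 0.081 (iDF 0 min Irf1), -0.93 to 0.24 (iDF 0 min Irf7), -0.041 to 0.54 (Gbp2, serum in dKO), -0.42 to 0.025 (Irf9, serum in dKO), -0.72 to 0.45 (Irf7, serum in dKO), -0.38 to 0.048 (Irf9, serum in WT), -0.20 to 0.031 (Ly6e, serum in WT), -0.39 to 0.29 (Irf7, serum in WT), -1.10 to 0.12 (Ifit3b, interaction), -0.63 to 0.13 (Igtp, interaction), -0.27 to 0.10 (Samd9l, interaction), -0.64 to 0.53 (Irf7, interaction), -0.26 to 0.21 (Irf9, interaction) and -0.17 to 0.075 (Irf9, CAFs minus bulk tumours).

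Of the values of named members under all alternatives, 1600 kept their direction and their side of the threshold, 57 lost it, 52 newly passed it and 42 turned. Coefficients of variation between replicates were 0.338 in bulk tumours, 0.521 in CD8+ T cells, 0.180 in CAFs and 0.0678 in iDFs over all genes. The mean over the members had an SD between replicates of 0.22 in bulk tumours, 0.21 in CD8+ T cells, 0.57 in CAFs and 0.33 in iDFs on the log2 CPM scale.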
